A study of Mus musculus with 6 samples.

Results

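MHC class II molecules are heterodimers that carry peptides from the endosomal pathway to the cell surface for CD4+ T cells. Their chains assemble in the endoplasmic reticulum with the invariant chain Cd74, which blocks the groove and guides them to endosomes. There the H2-DM heterodimer exchanges the remaining invariant chain fragment for a peptide, and H2-O restrains H2-DM in B cells and some dendritic cells. Transcription of the chain genes depends largely on the co-activator Ciita, which is itself induced by interferon gamma. Ciita docks on the RFX complex and NF-Y at the X and Y boxes of class II promoters. Macrophages, dendritic cells and B cells are the best known class II expressing cells of the marrow.

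The 10 genes described are H2-Aa, H2-Ab1, H2-Eb1, Cd74, Ciita, H2-DMa, H2-DMb1, H2-DMb2, H2-Oa and H2-Ob. They were selected by gene name among the 56605 non-control probes of the arrays, which carry 26283 named genes, and 19 probes bear one of these names. Of the 15072 genes bright enough to enter the test across all probes, 8 were class II genes. The genes were picked because the class II chains read lower in knockout cells while the peptide-loading genes did not, so their differences between the groups are descriptions and carry no test.

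The samples were RNA from bone marrow stromal cells of 3 mice or samples labelled NONMMUT002667-KO (KO) and 3 labelled wildtype (WT). NONMMUT002667 is the catalogue name of a mouse long non-coding RNA. In both groups the cells came from crushed, collagenase-digested femurs, were sorted as Sca-1+ CD29+ CD45- CD11b- and were then cultured to the first passage. All samples are labelled male, and strain, age and the way the allele was made are not given in the sources used here. The description field and the RNA extraction protocol speak of human blood, whereas titles, source names, organism and series text speak of mouse marrow stromal cells, and the last were followed.

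Each sample was hybridised in 1 colour to 1 Agilent array, and all 6 arrays lay on 1 slide and were scanned together. The KO arrays filled 1 row of that slide and the WT arrays the other, so slide row and genotype cannot be told apart. Between 49.0% and 53.0% of spots were well above background on the KO arrays and between 54.3% and 56.7% on the WT arrays. The arrays of KO replicate 1 and WT replicate 3 carried Xist signal, which marks an inactive X, and lacked signal of the Y-linked Eif2s3y, although all samples are labelled male. The other 4 arrays showed the opposite. Y-linked Ddx3y and Uty read as Eif2s3y did. The tested probe of Y-linked Kdm5d, 1 of its 6 probes, was well above background on all arrays, those with Xist signal included. Markers of the cells that the sort should have removed were bright: all 25 macrophage and monocyte markers were tested and 24 of them were well above background on all 6 arrays, among them Ptprc, which encodes CD45, and Itgam, which encodes CD11b. Of the 13 stromal markers, 12 were well above background on all 6 arrays.

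Values below are log2 signals minus the array's 75th percentile of non-control probes, so that 0 stands for a probe as bright as that percentile, and a difference is the KO mean minus the WT mean. Levels of different probes depend on the probe and were not set against each other. In these bulk samples fewer cells of a type and less RNA per cell cannot be told apart.

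The promoter sequences show the boxes that class II genes share. RefSeq promoter windows on GRCm38.p6, running from 250 bases before to 50 bases after the gene start, were found for 7 of the 10 genes, in 8 windows. The genes without an entry are H2-Ab1, Cd74 and Ciita. The X box was searched as the letters ACNGATG and the Y box as GATTGG, on both strands. The stretches shown hold the Y box nearest to the gene start of H2-Eb1, H2-Aa, H2-DMb1, H2-DMb2 and H2-Ob. Of these, H2-Eb1 had all KO arrays below all WT arrays. The groups of H2-Aa, H2-DMb1 and H2-Ob overlapped, and the mean difference of H2-Aa was negative. Capitals mark the X letters and the Y letters, all sequences read 5′ to 3′ on the strand of the gene, and the H2-Aa stretch lies on the minus strand while the others lie on the plus strand. The stretches are chr17:34305757-34305824 for H2-Eb1, chr17:34287855-34287922 for H2-Aa, chr17:34153079-34153146 for H2-DMb1, chr17:34145108-34145175 for H2-DMb2 and chr17:34238797-34238864 for H2-Ob.
H2-Eb1: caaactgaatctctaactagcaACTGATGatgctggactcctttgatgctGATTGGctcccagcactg
H2-Aa: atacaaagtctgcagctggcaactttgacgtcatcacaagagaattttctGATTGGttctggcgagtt
H2-DMb1: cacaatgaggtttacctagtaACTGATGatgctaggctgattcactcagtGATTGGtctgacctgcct
H2-DMb2: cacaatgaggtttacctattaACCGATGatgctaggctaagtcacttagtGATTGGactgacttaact
H2-Ob: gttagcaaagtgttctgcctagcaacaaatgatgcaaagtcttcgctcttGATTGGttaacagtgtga
In H2-Eb1 the X letters started 28 bases before the Y letters, and in H2-DMb1 and H2-DMb2 the spacing was 29 bases. An X followed by a Y on the same strand with starts 20 to 40 bases apart was found in 22 of 32851 RefSeq promoter windows (0.0670%), and these 3 genes are among the 22. The spacing range and the stretches printed were set after the sequences had been seen. Alone, the X letters occurred in 9.85% and the Y letters in 16.1% of all windows. All 7 class II genes with an entry had the Y letters in at least 1 window, including H2-Oa and H2-DMa. H2-Aa and H2-Ob had them without the exact X letters at the paired spacing. The search allowed no mismatch, so this does not show that their promoters lack an X box. H2-DMb1 and H2-Eb1 both carry the X and Y letters at nearly the same spacing. Whether the boxes bear on the differences between the groups was not tested.

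The class II chains and the invariant chain were read lower on the KO arrays, at 1.65-fold to 1.83-fold over the 7 probes. H2-Ab1 encodes the beta chain of the I-A molecule and has 4 probes in its transcript. Its brightest probe, at chr17:34406296-34406355 of build mm9, read 1.07, 0.82 and 0.88 on the KO arrays (replicates 1, 2 and 3), against 1.61, 1.69 and 2.08 on the WT arrays. All KO values lay below all WT values. The means were 0.92 ± 0.13 in KO and 1.79 ± 0.25 in WT (SD, n = 3 each), a difference of -0.87, and KO signal was 54.7% of WT signal.

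The other H2-Ab1 probes read the same way. The probe at chr17:34406305-34406363, which overlaps the first by 51 bases and is no independent reading, gave 0.95, 0.83 and 0.79 in KO and 1.44, 1.60 and 1.86 in WT. The probe at chr17:34406059-34406118 gave 0.01, -0.19 and -0.09 in KO and 0.55, 0.66 and 0.99 in WT. The dimmest, at chr17:34404357-34404416, gave -1.88, -2.37 and -2.07 in KO and -1.74, -1.44 and -0.996 in WT. In each of them the groups were separate, with differences of -0.78, -0.82 and -0.72, and over the 4 probes the KO signal was 54.7% to 60.7% of the WT signal.

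H2-Aa encodes the alpha chain that pairs with the H2-Ab1 product. Its single probe, at chr17:34421285-34421344, was dim, with -2.53, -4.19 and -3.47 in KO and -3.02, -2.76 and -1.84 in WT. The groups overlapped, because KO replicate 1 lay above both WT replicate 1 and WT replicate 2. The mean difference of -0.86 (KO -3.40 ± 0.83, WT -2.54 ± 0.62, SD, n = 3 each) had about the size seen in H2-Ab1 but was within the spread of the arrays, and the probe was well above background on 2 of 3 KO arrays and on 3 of 3 WT arrays.

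H2-Eb1 encodes the beta chain of the I-E molecule. Its probe, at chr17:34453075-34453134, read 0.44, 0.23 and 0.23 in KO against 0.88, 1.07 and 1.44 in WT. The KO arrays were all below the WT arrays, with means of 0.30 ± 0.12 in KO and 1.13 ± 0.28 in WT and a difference of -0.83, which is 1.78-fold lower. H2-Ea, the alpha chain gene that RefSeq lists as a transcribed pseudogene, cleared background on no array. H2-Eb2, another beta chain gene, cleared it on 1 KO array and 2 WT arrays and was not tested.

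Cd74, the invariant chain, lies outside the class II region, on chromosome 18. Its probe, at chr18:60972075-60972132, read 0.42, 0.20 and 0.23 in KO and 1.00, 0.79 and 1.49 in WT. The groups did not overlap, and the means of 0.28 ± 0.12 in KO and 1.09 ± 0.36 in WT gave a difference of -0.81, or 1.75-fold lower. Over H2-Aa, H2-Ab1, H2-Eb1 and Cd74, 1 probe each, KO signal was 54.7% to 57.1% of WT signal, and the median difference was -0.85 beside 0.02 over all 15072 genes tested. H2-Aa entered the tested genes only through WT, where it is higher, and without it the median of the other genes is that of H2-Eb1, -0.83.

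**Figure D1:**
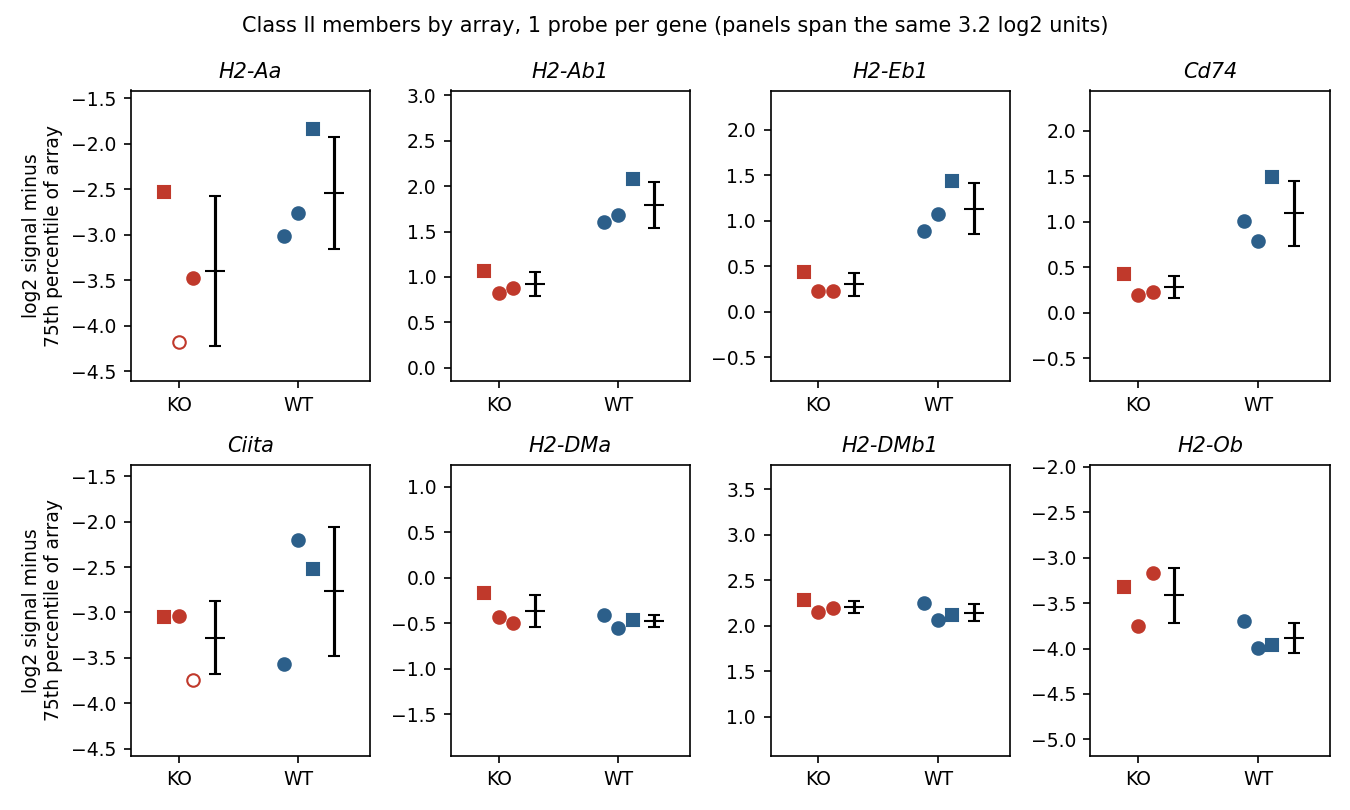
Log2 signal minus the array's 75th percentile (y axis) on the 3 KO and 3 WT arrays for the probe that stands for each of the 8 tested class II genes; bars are mean ± SD (n = 3), squares are the arrays with Xist signal and open symbols are values not well above background. H2-Ab1, H2-Eb1 and Cd74 have every KO array below every WT array, whereas the groups overlap for H2-Aa, Ciita, H2-DMa, H2-DMb1 and H2-Ob.

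The peptide-loading genes were not read lower. H2-DMb1, the beta chain of H2-DM, was bright at its probe at chr17:34297109-34297168, with 2.28, 2.15 and 2.19 in KO and 2.25, 2.06 and 2.12 in WT. The groups overlapped, and the means of 2.20 ± 0.07 in KO and 2.14 ± 0.10 in WT differed by 0.06. H2-DMa, the alpha chain, read -0.17, -0.43 and -0.50 in KO and -0.41, -0.55 and -0.46 in WT at its probe, whose mm9 span of chr17:34274300-34274863 is longer than the probe and so crosses a splice junction. These groups overlapped too, with a difference of 0.11 (KO -0.36 ± 0.17, WT -0.47 ± 0.07). H2-DMb1 and H2-DMb2 are close copies, and whether the H2-DMb1 probe also reads H2-DMb2 RNA was not tested.

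The H2-O genes and H2-DMb2 were dim or not measured. H2-Ob, the beta chain of H2-O, was well above background on all 6 arrays at 1 of its 3 probes (chr17:34380481-34380849), where it read -3.33, -3.76 and -3.17 in KO and -3.70, -3.99 and -3.96 in WT. The groups overlapped, and the difference was 0.47 (KO -3.42 ± 0.31, WT -3.88 ± 0.16). This probe lay near the background, and the 22283 probes of the whole array that were well above background on no array had a median difference of 0.56. H2-Oa (chr17:34232033-34232092), H2-DMb2 (chr17:34284764-34284823), the second H2-DMb1 probe and the other 2 H2-Ob probes were well above background on no array.

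Ciita, the co-activator of class II transcription, has 4 probes, on chromosome 16. The brightest, at chr16:10526458-10526517, read -3.05, -3.03 and -3.74 in KO and -3.56, -2.21 and -2.52 in WT. It was well above background on 2 of 3 KO arrays and on 3 of 3 WT arrays, so Ciita entered the tested genes only through WT. The groups overlapped, since WT replicate 1 lay below KO replicates 1 and 2, and the difference of -0.51 (KO -3.28 ± 0.40, WT -2.76 ± 0.71) was within the spread of the arrays. A second probe, at chr16:10492271-10492330, was well above background on 2 WT arrays and on 0 KO arrays, with -5.52, -5.88 and -5.24 in KO and -3.85, -5.06 and -4.35 in WT, so all KO values lay below all WT values at signals that give no fold. The remaining 2 probes were well above background on no array. Ciita was thus read near the limit of these arrays, and the data give no firm size for its difference.

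Over all 19 probes, 12 were well above background on at least 1 array and 7 on none. Of the 9 probes well above background on all 6 arrays, 6 had all KO arrays below all WT arrays, and 0 had them above. These 6 are the probes of H2-Ab1, H2-Eb1 and Cd74, while the 3 that overlapped belong to H2-DMa, H2-DMb1 and H2-Ob. Among all 25599 probes well above background on all 6 arrays, 8.79% had KO below WT in this way and 13.5% had KO above WT; since the genes were picked on this contrast, the count is not evidence about them. The 7 probes on no array all had positive differences, of 0.06 to 0.56, on the same side of 0 as the median of the dim probes of the whole array.

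The chains varied with each other across arrays as well as between groups. The mean of H2-Aa, H2-Ab1, H2-Eb1 and Cd74 was -0.15, -0.73 and -0.53 in KO against 0.12, 0.20 and 0.79 in WT. Much of its spread within KO came from the dim H2-Aa probe, with an SD of 0.83 over the KO arrays. The SD was 0.12 to 0.13 for H2-Ab1, H2-Eb1 and Cd74. The highest KO value of the mean belonged to replicate 1 and the highest WT value to replicate 3, and those are the arrays with Xist signal. Each of the 7 chain and invariant chain probes had its highest KO value and its highest WT value on these arrays. Without them, all 7 probes had both remaining KO arrays below both remaining WT arrays, with differences of -0.94 to -0.64, and between the 2 arrays with Xist signal the differences were -1.07 to -0.69. For the probes of H2-Ab1, H2-Eb1 and Cd74 the direction was fixed, since all their KO values lay below all WT values. Only the H2-Aa probe could have differed.

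**Figure D2:**
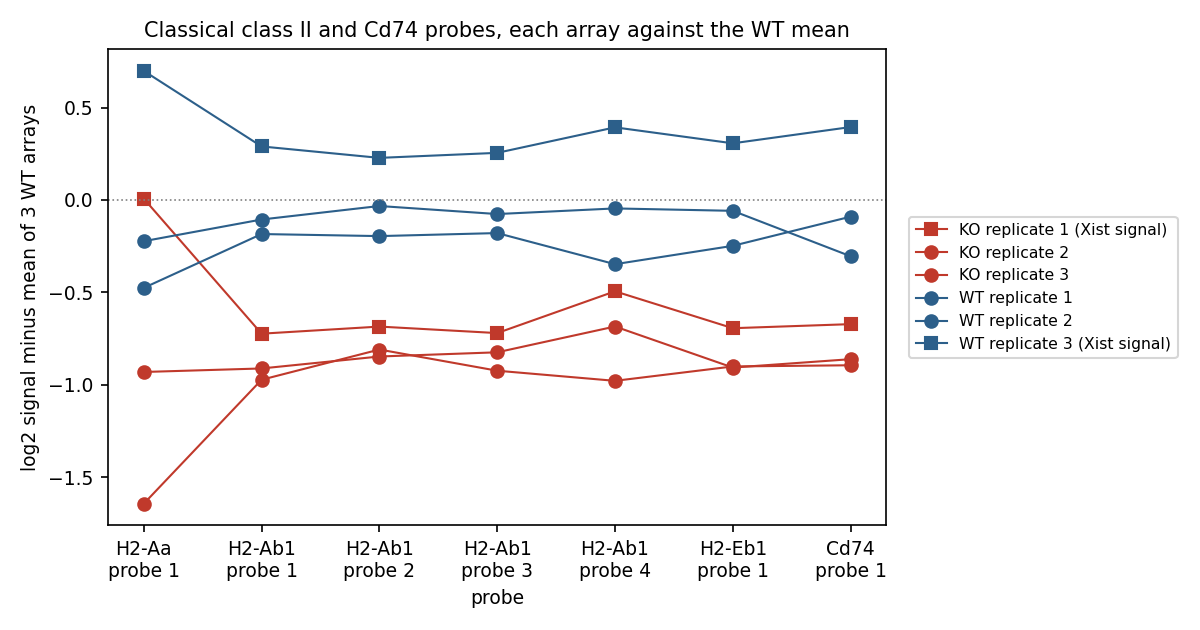
Log2 signal of the 7 probes for class II chains and Cd74 (x axis) minus the mean of the 3 WT arrays (y axis), with a line for each array and squares for the arrays with Xist signal. Over H2-Ab1, H2-Eb1 and Cd74 the 3 KO arrays lie below the 3 WT arrays at each probe, while the lines within a group cross in places, and they spread apart at H2-Aa, where KO replicate 1 reaches the WT mean.

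The mean of the loading genes H2-DMa and H2-DMb1 was 1.06, 0.86 and 0.85 in KO and 0.92, 0.76 and 0.83 in WT, and the groups overlapped. The chain mean minus this loading mean was -1.21, -1.59 and -1.38 in KO, against -0.80, -0.56 and -0.03 in WT. All KO arrays were lower than all WT arrays in this quantity, which compares arrays and says nothing of the relative amount of the transcripts. The genes were picked for this very contrast between chains and loading genes, so the separation is a description and not evidence about them.

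Class II genes lie together on chromosome 17. Between H2-Oa and H2-Ea the RefSeq table for GRCm38.p6, used here for gene order only, lists 16 genes, 8 of them class II genes of the present set. H2-DMa, H2-DMb1 and H2-Ob lie on one side, and H2-Ab1, H2-Aa and H2-Eb1 follow next to each other. Of the 8 other genes, 5 were tested and 0 passed the limma test at an adjusted p of 0.05, beside 0.0796% of all genes tested. Psmb9, Tap1, Psmb8 and Tap2, which encode immunoproteasome subunits and the peptide transporter of the class I pathway and sit between H2-DMb1 and H2-Ob, differed by 0.10, 0.05, 0.15 and -0.03, all with overlapping groups. Brd2, a bromodomain protein gene next to H2-DMa, differed by -0.18 with an unadjusted p of 0.0321 and an adjusted p of 0.275 (limma), and its other tested probe differed by 0.26.

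**Figure D3:**
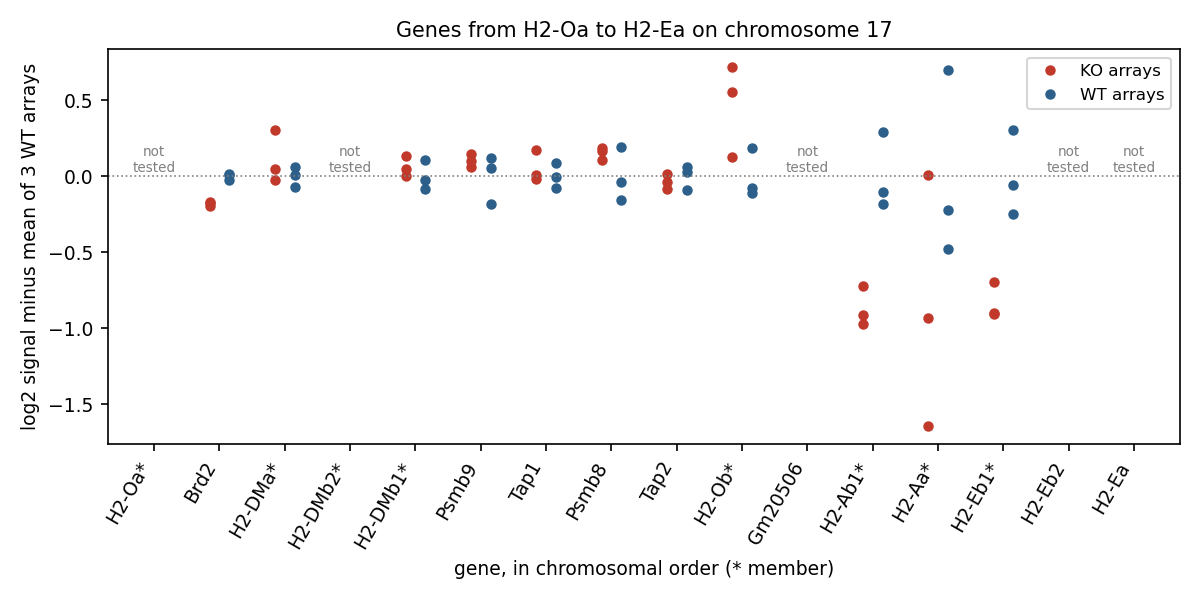
Log2 signal minus the mean of the 3 WT arrays (y axis) for the genes from H2-Oa to H2-Ea in chromosomal order (x axis), with KO arrays left of WT arrays and class II genes marked by an asterisk. H2-Ab1 and H2-Eb1 have KO arrays below all WT arrays, and the genes between H2-DMa and H2-Ob sit close to the WT mean.

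The next list joins transcription factors of class II genes with interferon gamma signalling and its inhibitors, Socs1, Il10 and Il10ra among them, and 19 of its 22 genes were tested. None passed the test (limma, 0 of 19 at adjusted p 0.05, with 2 higher and 2 lower at an unadjusted p of 0.05, beside 6.78% higher and 8.1% lower among all genes). The median difference was 0.07. The RFX subunits, which bind the X box, had differences of both signs. Rfxank differed by 0.26 (adjusted p = 0.194), Rfxap by 0.09 (adjusted p = 0.614) and Rfx5 by -0.23 (adjusted p = 0.374), all by limma, and Rfx5 cleared background on 1 KO array and 3 WT arrays, so that it was tested only through WT. Jak2, a kinase of the interferon gamma receptor, differed by -0.30 (adjusted p = 0.256), the receptor chain Ifngr1 by 0.05 (adjusted p = 0.9) and Irf8, a transcription factor of myeloid cells, by 0.25 (adjusted p = 0.184).

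The list of lysosomal processing and class II turnover holds cathepsins and other enzymes, the lysosomal membrane proteins Lamp1 and Lamp2, the ubiquitin ligases Marchf1 and Marchf8, and Mif and Cd44. Of its 16 genes, 15 were tested and 0 passed, with 0 at an unadjusted p of 0.05. The median difference was 0.10 and 13 of the 15 were positive. Ctss, the cathepsin that trims the invariant chain in antigen-presenting cells, read 8.31, 8.22 and 8.15 in KO and 8.06, 8.05 and 8.14 in WT, a difference of 0.14 (limma adjusted p = 0.447). Ctsl, which cuts it in thymic epithelium, differed by 0.18, Ifi30, a lysosomal thiol reductase, by 0.20 and Cst3, a cathepsin inhibitor, by 0.15, with limma adjusted p of 0.425, 0.405 and 0.368.

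Class I presentation genes had small differences at 1 probe per gene, from -0.22 to 0.22. Their other tested probes ran from -0.50 for H2-T23 to 0.16 for Tap1. All 20 genes of that list on the array were tested and 0 passed, with 0 at an unadjusted p of 0.05, and the median difference was 0.05. H2-K1 averaged 6.68 ± 0.02 in KO and 6.65 ± 0.04 in WT, H2-D1 5.96 ± 0.15 in KO and 5.89 ± 0.10 in WT, and B2m, the light chain, 6.95 ± 0.03 in KO and 6.93 ± 0.05 in WT. Class I heavy chain genes have many close copies, which array probes may not separate. Of 15 tested genes induced by interferon gamma, 0 passed, with 1 lower at an unadjusted p of 0.05, beside 8.1% lower among all genes. The median of the list was -0.11, or 0.07 without WT replicate 2. Socs1, a feedback inhibitor of the receptor, differed by -0.35 (limma adjusted p = 0.274), Irgm1, an immunity GTPase, by 0.17 (adjusted p = 0.436) and Cd274, which encodes PD-L1, by 0.34 (adjusted p = 0.487).

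Costimulatory genes, whose products accompany class II molecules on antigen-presenting cells, were tested for 8 of 10. None passed (limma, 0 at adjusted p 0.05), and the median was -0.06. At an unadjusted p of 0.05 by limma, 2 were lower, beside 8.1% lower among all genes. Cd40 read -3.03, -3.74 and -3.39 in KO and -2.89, -2.64 and -2.93 in WT, a difference of -0.56 (limma adjusted p = 0.232) with all KO arrays below all WT arrays. Cd86 differed by -0.39 (adjusted p = 0.256), but its other tested probe differed by 0.31, and Icosl differed by 0.36 (adjusted p = 0.42).

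**Figure D4:**
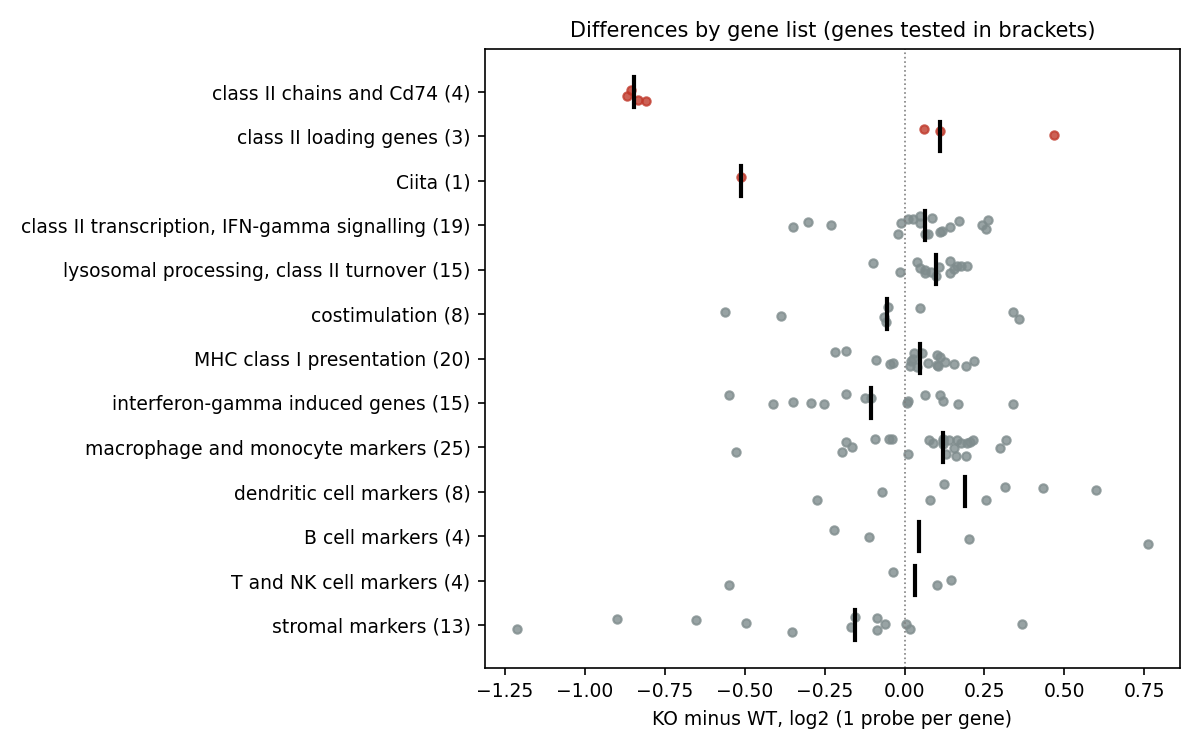
Difference KO minus WT in log2 signal (x axis) of each tested gene, 1 probe per gene, by list (y axis, number tested in brackets), with the list median as a vertical bar. The class II chains and Cd74 lie near -0.85, while the medians of the other lists apart from Ciita lie between -0.16 and 0.19.

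Markers of cells known for class II were compared in the same fit. Of the 25 macrophage and monocyte markers 0 passed, and 18 were positive. At an unadjusted p of 0.05 by limma, 2 were higher and 0 lower, beside 6.78% higher and 8.1% lower among all genes. The mean level of these markers was 4.01 to 4.14 on the KO arrays and 3.95 to 4.02 on the WT arrays. Its part in the class II difference was not tested. Ptprc differed by 0.20, Adgre1 (F4/80) by 0.14 and Csf1r, the CSF1 receptor, by 0.13, with limma adjusted p of 0.519, 0.577 and 0.486. The 4 other tested probes of Ptprc differed by 0.25 to 0.52, but the other probes of Csf1r and Adgre1 differed by -0.30 and -0.08. Itgam differed by 0.12 (adjusted p = 0.615) at its brightest probe and by -0.25 at the other. Cd14 differed by 0.32 (adjusted p = 0.231) and by 0.29 at its other probe. Trem2 differed by 0.22 (adjusted p = 0.234) and Laptm5 by 0.16 (adjusted p = 0.322).

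Dendritic cell markers were tested for 8 of 16, and 0 passed, with a median of 0.19. Of the 8 tested, 6 were positive and 2 negative, the lowest being Fscn1 at -0.27. At an unadjusted p of 0.05 by limma, 2 were higher, beside 6.78% higher among all genes. Itgax, which encodes CD11c and is also found on macrophages, read 4.35, 4.12 and 3.66 in KO and 3.34, 3.08 and 3.90 in WT, with overlapping groups and a difference of 0.60 (limma adjusted p = 0.326). Batf3, a factor of cross-presenting dendritic cells, differed by 0.43 (adjusted p = 0.256), and Flt3, their growth factor receptor, by 0.08 (adjusted p = 0.85), well above background on 1 KO array and 3 WT arrays. Zbtb46, a factor of classical dendritic cells, was well above background on no array. The level of the list was 1.50 to 1.78 on the KO arrays and 1.46 to 1.50 on the WT arrays.

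Among B cell markers, 4 of 11 were tested and 0 passed, with 0 at an unadjusted p of 0.05. The defining marker Cd79a was well above background on no array. Cd79b differed by -0.22 (limma adjusted p = 0.718), Pax5 by 0.76 (adjusted p = 0.353, and by 0.34 without KO replicate 1) and Cd22 by 0.20 (adjusted p = 0.483), and the list level was -1.93 to -1.48 on the KO arrays and -1.99 to -1.80 on the WT arrays. Of 8 T and NK cell markers, 4 were tested and 0 passed, with 0 at an unadjusted p of 0.05. Cd4, which mouse macrophage subsets can also express, differed by 0.15 and Lck by 0.10, with limma adjusted p of 0.624 and 0.69. Gzmb cleared background on 0 KO arrays and 3 WT arrays, so that it was tested only through WT. Its groups overlapped, with measured means of -4.27 in KO and -3.72 in WT (limma adjusted p = 0.49 on the signals as measured).

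Stromal markers, like the class II chains, had mostly negative differences, in 10 of 13 genes. Of the 13 tested, 0 passed, and the median was -0.16. At an unadjusted p of 0.05 by limma, 1 was higher and 3 were lower, beside 6.78% higher and 8.1% lower among all genes. The mean level of the stromal markers was 2.26 to 2.57 on the KO arrays and 2.59 to 2.78 on the WT arrays, and its part in the class II difference was not tested. Nt5e, which encodes CD73, differed by -1.21 (limma adjusted p = 0.0932), Col1a1 by -0.90 (adjusted p = 0.141, its other tested probes by -0.21 and -0.14) and Cxcl12, a chemokine of marrow stroma, by 0.37 (adjusted p = 0.227). The sorting markers Ly6a (Sca-1) and Itgb1 (CD29) differed by -0.09 and -0.08.

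Among 410 genes outside the set that were well above background on all 6 arrays and had an SD over arrays of at least 0.5, the 5 whose signal followed the mean of H2-Aa, H2-Ab1, H2-Eb1 and Cd74 most closely were Capn6, Lman1l, Tmem254a, Megf10 and Tbx2. Pearson's r over the 6 arrays was 0.974 for Capn6, 0.972 for Lman1l, 0.969 for Tmem254a, 0.965 for Megf10 and 0.954 for Tbx2. All 5 had every KO array below every WT array, with differences between -1.21 for Megf10 and -0.77 for Lman1l and Tbx2, so the shared contrast between the groups is part of each r. Within the groups, the dim H2-Aa probe spread most among the genes of the chain mean, so each r also leans on it. With 6 arrays, 37 of the 410 genes reached an r of 0.9, and such a rank describes these arrays only. Tmem254a has near-identical copies that its probe may not separate.

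The differences of the class II probes kept their sign under each other processing tried. Of the 12 probes recomputed, the 9 with a negative difference stayed negative and the 3 with a positive difference stayed positive under every alternative that gave a value, 14 or 15 per probe. Much of this was fixed in advance. The variance trend, the replicate block, the Xist covariate and the filters on dim probes leave each of these differences as reported. Where all KO arrays lay below all WT arrays, leaving arrays out cannot change the sign. The median of H2-Aa, H2-Ab1, H2-Eb1 and Cd74 lay between -0.96 and -0.65 when single arrays were left out.

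**Figure D5:**
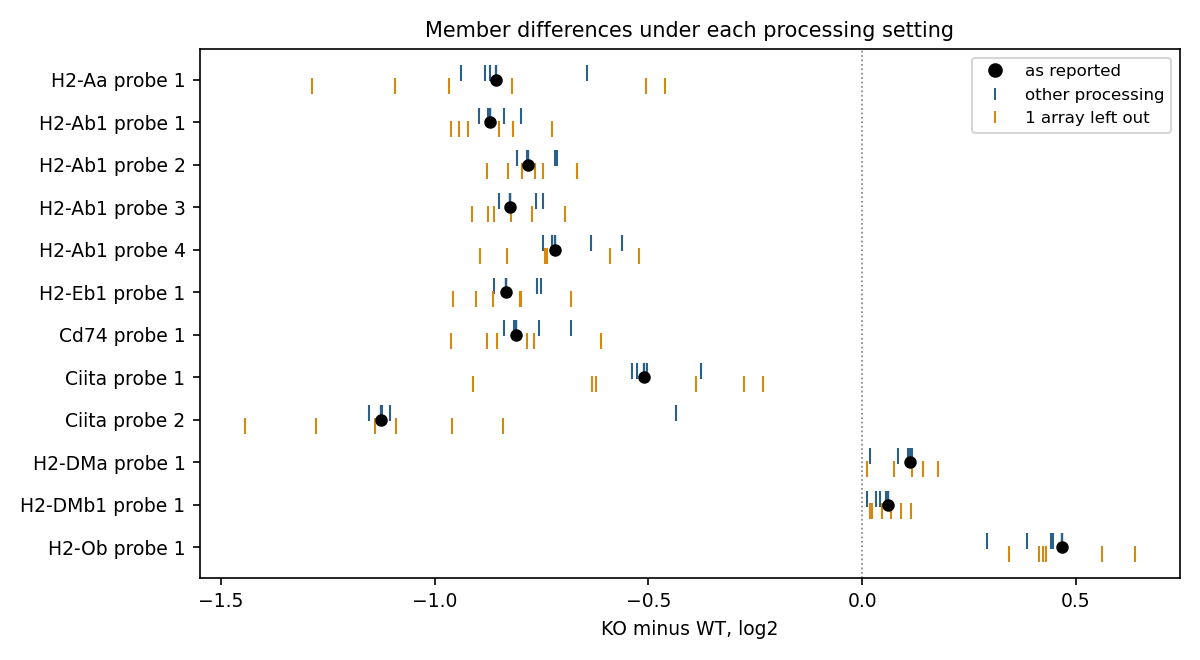
Difference KO minus WT in log2 signal (x axis) of the 12 class II probes well above background on at least 1 array (y axis) as reported (black), under other processing (blue) and with 1 array left out (orange). The probes of H2-Ab1, H2-Eb1 and Cd74 stay between -0.96 and -0.52, H2-Aa and Ciita spread more widely, and H2-DMa and H2-DMb1 stay between 0.01 and 0.18.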

How the data were processed

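The intensity values are the scanner software's processed signals and their background flags, as deposited for each array, per the file headers. Those headers name Agilent Feature Extraction 10.7.1.1, while the submitters' processing notes name version 9.1. The deposited series table holds log2 values of the same arrays and served as an alternative; how it was scaled is not stated in those notes. Of 62976 spots per array, 59305 were not controls and gave 56605 probes, with mm9 positions per the file headers.

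Processed signals were log2 transformed and each array's 75th percentile was subtracted. Outlier spots (49 to 131 per array) were left out, spots of a probe were averaged, and only probes that cleared background on all arrays of KO, of WT or of both were tested. This left 28607 probes. The two-sided test was limma's moderated one (version 3.58.1, R 4.3.3, lmFit then eBayes, 4 residual degrees of freedom), and Benjamini-Hochberg adjustment ran over all of them with a threshold of 0.05. Of these probes, 17 passed. The brightest tested probe stood for a gene. The fit was tested on simulated data. Probes were named through RefSeq accessions (32994), symbols (10224) or synonyms (520), and 1596 kept a name from the file that is no accession.

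The labels do not say whether samples are single animals, so a p-value sets a difference only against the spread of these samples. The number of arrays limits the precision. The members and all lists were chosen with earlier results of these data known. Genes named besides the members are, per list, up to 3 with the smallest p, a set of defining markers, and the 6 most like the chain mean; a few genes that this rule names are not reported here. The neighbouring genes and the comparison within arrays with and without Xist signal were chosen after values were seen. Alternatives covered normalization, filters, variance model, replicate block, Xist and each array left out.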

Additional observations from a re-analysis of the deposited data

How the results depend on the processing

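Differences of the class II probes kept their direction under all alternatives, although several of these could not have changed it. In size, the loading median of H2-DMa and H2-DMb1 was 0.09 as reported and 0.21 with the mean of all probes of a gene, which takes in an H2-DMb1 probe well above background on no array, and the second Ciita probe moved to -0.43 after normexp and quantile normalization. Over all alternatives, H2-Aa ranged between -1.29 and -0.46, the brightest Ciita probe between -0.91 and -0.23, H2-DMa between 0.01 and 0.18 and H2-DMb1 between 0.01 and 0.11. Leaving out 1 array at a time gave -0.96 to -0.65 for the chain median and 0.02 to 0.13 for the loading median. Counts over all probes depended on the processing. By limma, 17 probes (12 genes) passed, against 101 (62) with median centring, 220 (153) with a variance trend, 215 (141) after normexp and quantile normalization, 9 (6) among probes bright on all 6 arrays, and 0 (0) with no filter on dim probes (18002 probes at an unadjusted p of 0.05), with the Xist signal as a covariate (4617 probes) and with the replicate number as a block (4648 probes). Leaving out 1 array gave 2 to 31 probes and 0 to 15 genes, with 2 probes and 1 gene without WT replicate 1, 4 probes and 0 genes without WT replicate 2 and 31 probes without WT replicate 3. The cause was not tested. Under all 15 alternatives, 0 genes of the related lists passed. Same-numbered samples correlated at 0.06, 0.15 and -0.03 in their deviations from the group means, so the numbers were not taken as pairs, and not every sample correlated best with its own number. Slide as a block was not run, since there is 1 slide. Signals near background limit H2-Aa, Ciita and H2-Ob.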
